A study of Mus musculus with 24 samples.

Results

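The hair cell transcription factors described here are 7 genes, Atoh1, Pou4f3, Gfi1, Barhl1, Lhx3, Ikzf2 and Insm1, chosen by name as regulators of hair cell identity and found by their gene identifiers among the 24454 genes of a count table. Their transcripts were counted by RNA sequencing of the organ of Corti (OC), the sensory strip of the cochlea, which was dissected from C57BL/6N mouse pups of both sexes at 5 days of age and kept for 24 h in medium before treatment. The explants were then left without drug (CTRL) or treated for 6 or 24 h. Gentamicin (GM, 50 μM) is an antibiotic toxic to hair cells, pioglitazone (PIO, 10 μM) activates the nuclear receptor PPARγ, and a further group received both (PIO + GM). Each of the 8 groups held 3 libraries, each made from the RNA of 6 OCs, so that 24 libraries were compared.

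Hair cells arise from prosensory cells that switch on Atoh1, a basic helix-loop-helix factor that starts their differentiation, while Notch signalling holds neighbouring cells in the supporting cell state. Pou4f3, a POU-homeodomain factor, is needed for the survival of differentiating hair cells, and Gfi1, a zinc-finger repressor, acts downstream of it. Barhl1, a homeobox factor, serves long-term hair cell maintenance, Lhx3 is a LIM-homeobox factor of hair cells, Ikzf2 (helios) shapes the maturing outer hair cell and Insm1 is a zinc-finger factor of newly formed outer hair cells.

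Promoter sequence was at hand for 4 of the 7 genes, Atoh1, Gfi1, Barhl1 and Lhx3 (RefSeq, GRCm38.p6). Windows of 250 bases before the farthest upstream start site of that table were read, and those of Gfi1, Barhl1 and Lhx3 are shown, less any bases that GENCODE marks as untranslated exon, since these 3 genes were lower together with both compounds at 6 h. Capitals mark the E-box CAGNTG, read on both strands, the kind of motif that basic helix-loop-helix factors such as Atoh1 bind. The stretches shown are chr5:107725806-107725954 for Gfi1, chr2:28916669-28916918 for Barhl1 and chr2:26208290-26208499 for Lhx3, each on the minus strand. That of Barhl1 lies before the table's farthest start but inside the RefSeq gene, which reaches base 28917984.
Gfi1: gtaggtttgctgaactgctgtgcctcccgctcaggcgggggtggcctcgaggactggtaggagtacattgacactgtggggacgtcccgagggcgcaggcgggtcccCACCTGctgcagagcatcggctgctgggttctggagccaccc
Barhl1: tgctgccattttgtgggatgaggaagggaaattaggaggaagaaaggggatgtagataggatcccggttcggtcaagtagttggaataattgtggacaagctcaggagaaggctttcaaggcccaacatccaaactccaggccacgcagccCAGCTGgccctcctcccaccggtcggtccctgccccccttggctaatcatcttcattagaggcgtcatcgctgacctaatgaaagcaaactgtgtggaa
Lhx3: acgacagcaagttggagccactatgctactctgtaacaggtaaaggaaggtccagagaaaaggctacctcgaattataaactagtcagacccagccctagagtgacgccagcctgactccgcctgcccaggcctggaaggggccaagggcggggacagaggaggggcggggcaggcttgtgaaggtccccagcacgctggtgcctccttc
The full Gfi1 and Barhl1 windows held 1 CAGNTG each, while the Lhx3 window and that of Atoh1 held 0. Of 32851 promoter windows of the same length, 44.8% held at least 1. A match is a description of these letters only. The homeodomain core TAATTA had 0 matches in these 4 windows and at least 1 match in 4.84% of all windows. GC content of the full windows was 59.2% for Gfi1, 52.8% for Barhl1 and 62.0% for Lhx3, with a median of 52.4% over all windows.

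The genes lie on 5 chromosomes of GRCm38, and 3 of them are on chromosome 2: Barhl1 (chr2:28907680-28917984, minus strand), Lhx3 (chr2:26200212-26208249, minus strand) and Insm1 (chr2:146221997-146225020, plus strand). Atoh1 is at chr6:64729125-64731245 on the plus strand, Pou4f3 at chr18:42394597-42396093 on the plus strand, Gfi1 at chr5:107716655-107725805 on the minus strand and Ikzf2 at chr1:69531207-69687351 on the minus strand. Atoh1 and Insm1 have 1 exon. Transcript GC content set Ikzf2 apart, at 40.06%, from the other 6 genes, which ranged from 53.09% in Atoh1 to 62.0% in Insm1, against a median of 48.76% over all genes with a value.

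Library totals ran from 7211357 counts in PIO + GM replicate 3 at 6 h to 15548856. Hair cell and supporting cell markers were present in every library: Myo7a, the hair cell myosin, ranged from 30.9 to 96.0 CPM (counts scaled to a common library size with TMM factors) and Sox2, a supporting cell factor, from 29.8 to 90.1 CPM. Other cells were in the tissue too, with Tubb3, a tubulin of neurons, between 6.68 and 49.5 CPM. PIO + GM replicate 1 at 6 h stood apart in its effect on calls. Without it, the genes called between PIO + GM and GM at 6 h rose from 216 to 4053. Without PIO + GM replicate 2 or replicate 3 they fell to 4 and 6. The main values for PIO + GM at 6 h are also given without replicate 1.

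Levels per length were compared as RPKM, which is CPM divided by the gene's length in kilobases, over all 24 libraries. Pou4f3 had a mean of 8.37 RPKM and Ikzf2 of 7.97, and this pair was not separated, since Pou4f3 was the higher in 14 of 24 libraries. Gfi1 followed with 2.11 RPKM and was below Ikzf2 in all 24 libraries. Lhx3 had 1.01 RPKM, below Gfi1 in 23 libraries and above Barhl1, with 0.685, in 19. In 2 of the 8 groups the mean of Lhx3 was below that of Barhl1, at 0.733 against 0.910 RPKM in GM at 24 h and 0.294 against 0.347 RPKM in PIO + GM at 6 h. Barhl1 and Atoh1, with 0.616 RPKM, were not separated, as Barhl1 was the higher in 13 libraries. Insm1 was lowest, with 0.0835 RPKM, and below Atoh1 in 23 libraries.

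Insm1 had 0 to 9 counts per library and did not pass the filter on low counts, so 6 of the 7 genes were tested. Its level was at most 0.757 CPM, in GM replicate 2 at 6 h, and was 0 in CTRL replicate 1 at 24 h, which at 3 counts as the limit allows a level of up to 0.257 CPM in a library of that size. Its libraries did not overlap between PIO, with 0.263, 0.106 and 0.0723 CPM, and CTRL, with 0.321, 0.352 and 0.319 CPM, at 6 h, as for 6.76% of all tested genes in the lower direction. The same held for CTRL at 24 h, with 0, 0.132 and 0.262 CPM, against CTRL at 6 h, where 22.3% of all tested genes were separated lower. These levels rest on 0 to 4 counts per library, at or near the limit, and were not tested. All intervals and limits of this kind cover counting error only.

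**Figure D1:**
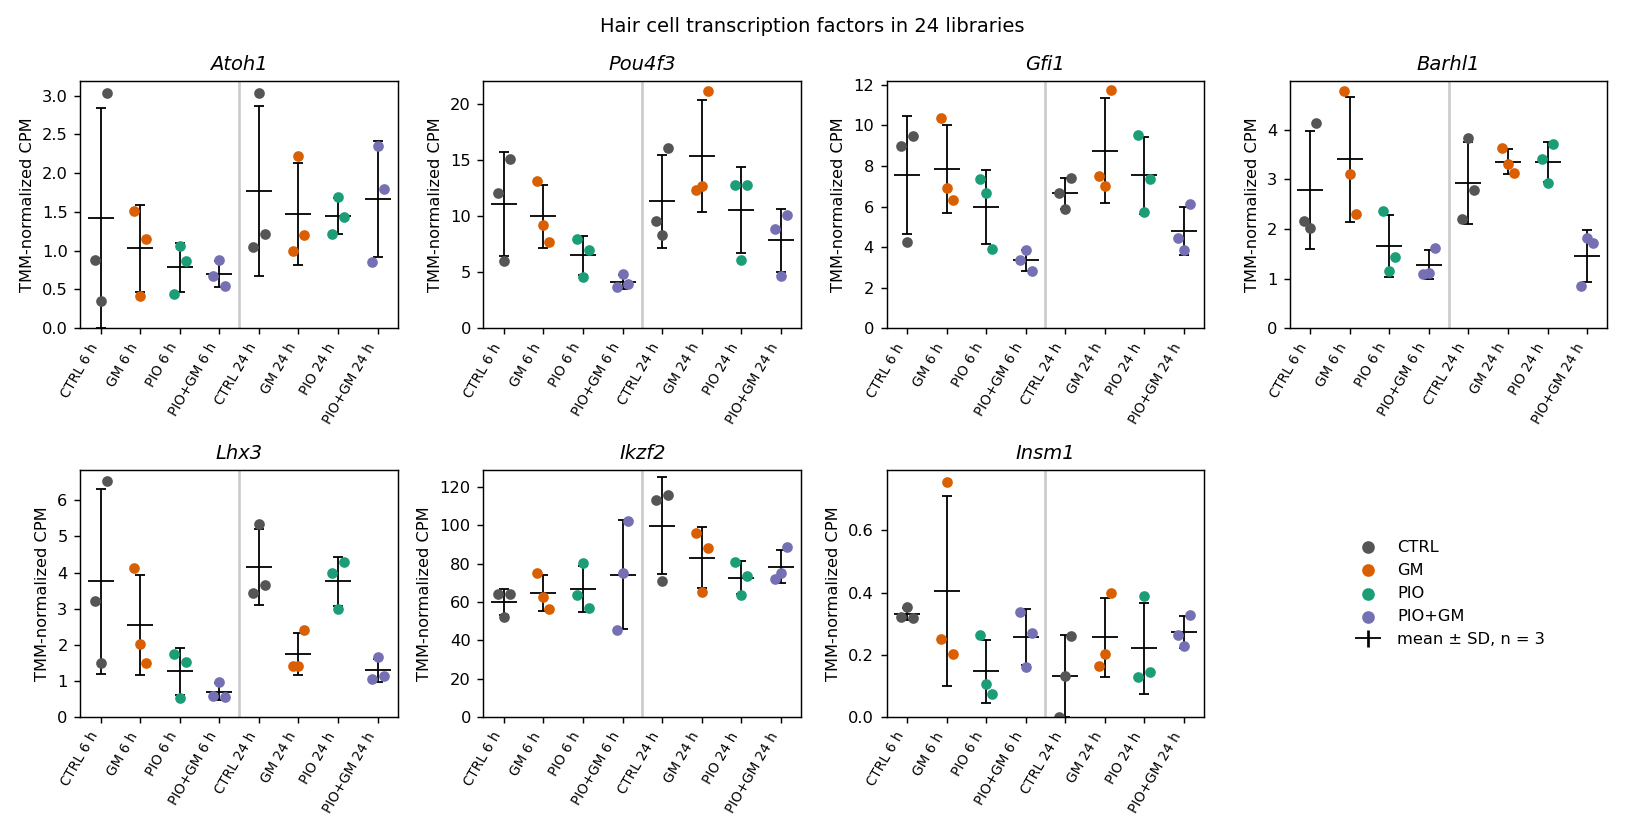
Level of each of the 7 genes in every library, as TMM-normalized CPM on linear axes from 0, by treatment and time. Points are libraries, bars are means ± SD (n = 3). Pou4f3, Gfi1, Barhl1 and Lhx3 sat lowest in PIO + GM at 6 h, with means of 4.12, 3.36, 1.28 and 0.698 CPM.

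The comparison of PIO + GM with GM asks what pioglitazone changed in explants exposed to gentamicin. At 6 h, 4 of the 6 tested genes, Pou4f3, Gfi1, Barhl1 and Lhx3, had all 3 PIO + GM libraries below all 3 GM libraries, by 2.32-fold to 3.51-fold. None passed the test, edgeR's quasi-likelihood test with Benjamini-Hochberg adjustment over 16317 genes, in which 1.32% of all genes passed. Libraries were separated in the lower direction for 11.4% of all genes. In bulk tissue, fewer hair cells and less RNA per hair cell cannot be told apart.

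Pou4f3 had 13.1, 9.17 and 7.68 CPM in GM at 6 h and 3.64, 4.81 and 3.91 CPM in PIO + GM. Its log2 fold change was -1.27 (SE 0.39, edgeR adjusted p = 0.0817). Every PIO + GM library lay under 5 CPM, and no GM library did.

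Gfi1 had 10.3, 6.9 and 6.32 CPM in GM and 3.38, 3.85 and 2.83 CPM in PIO + GM. The log2 fold change was -1.21 (SE 0.33, edgeR adjusted p = 0.0631). Barhl1 had 4.79, 3.11 and 2.31 CPM in GM and 1.1, 1.12 and 1.62 CPM in PIO + GM, for a log2 fold change of -1.42 (SE 0.37, edgeR adjusted p = 0.059). For both genes the groups did not overlap, although GM replicate 1 was well above the other GM libraries.

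Lhx3 had 4.12, 2.02 and 1.5 CPM in GM and 0.592, 0.962 and 0.539 CPM in PIO + GM, from 4 to 12 counts per PIO + GM library. Its log2 fold change was the largest of the 6, at -1.81 (SE 0.53, edgeR adjusted p = 0.0732). Atoh1, at -0.53, and Ikzf2, at 0.20, had overlapping groups.

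The calls depended on the tool, the filter on low counts, 1 library and the design. A block on replicate number called 4 of 6 genes (12.2% of all genes), and 0 with the GC trend removed as well (4.50%). DESeq2 called Pou4f3, Gfi1, Barhl1 and Lhx3 (adjusted p from 0.0145 to 0.0274), where 9.58% of all genes were called. With a filter of 10 counts in every library, which leaves out Atoh1 and Lhx3, edgeR called Barhl1 (adjusted p = 0.0485, with 2.58% of all genes called). Without PIO + GM replicate 1, edgeR called Gfi1 and Barhl1 (adjusted p = 0.0295 and 0.034), where 24.4% of all genes were called. Log2 fold changes without that library were -1.19 for Pou4f3, -1.22 for Gfi1, -1.34 for Barhl1 and -1.69 for Lhx3.

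GC content moved with the same comparison. Across the tested genes, Spearman's rho between transcript GC content and the log2 fold change was -0.622 at 6 h, and -0.654 without PIO + GM replicate 1, a description across genes, which are not replicates. The 4 lower genes are GC-rich, and the median log2 fold change of all genes in their GC decile was -0.28 for Pou4f3, -0.37 for Gfi1 and -0.51 for Barhl1 and Lhx3. With each library's GC trend removed, the log2 fold changes were -1.03 for Pou4f3, -0.79 for Gfi1, -0.89 for Barhl1 and -1.30 for Lhx3, and 0 of 6 genes passed (0.766% of all genes did). Under this setting Ikzf2, which is GC-poor, went from 0.20 to -0.18.

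**Figure D2:**
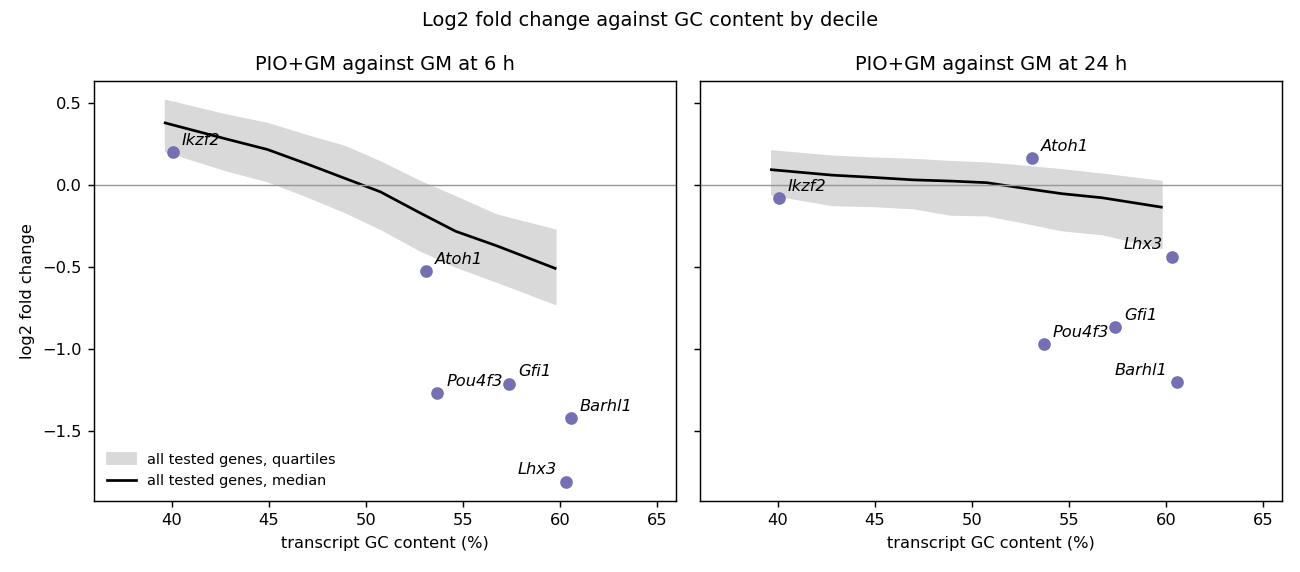
Log2 fold change of PIO + GM against GM at 6 h and 24 h (y axis) against transcript GC content in percent (x axis). The line and band are the median and quartiles of all tested genes by GC decile, and points are the 6 tested transcription factors. Lhx3 was the lowest point at 6 h, at -1.81, and Barhl1 at 24 h, at -1.20.

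At 24 h the same comparison separated 3 of the 6 genes, Pou4f3, Gfi1 and Barhl1, against 8.57% of all genes in the lower direction. None passed the test, as did 0.110% of all genes. Pou4f3 had 12.3, 12.7 and 21.1 CPM in GM and 8.8, 4.69 and 10.1 CPM in PIO + GM, a log2 fold change of -0.97 (SE 0.37, edgeR adjusted p = 0.506). Gfi1 had 7.52, 7.02 and 11.7 CPM in GM and 4.43, 3.86 and 6.13 CPM in PIO + GM, at -0.87 (SE 0.31, edgeR adjusted p = 0.474).

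Barhl1 had the largest fold change of the 3 separated genes at 24 h, with 3.63, 3.31 and 3.13 CPM in GM and 0.86, 1.82 and 1.72 CPM in PIO + GM. Its log2 fold change was -1.20 (SE 0.36, edgeR adjusted p = 0.293), and -1.06 with the GC trend removed. The Spearman correlation with GC content was -0.238 at this time. Lhx3, at -0.44, overlapped, with 1.41, 1.42 and 2.4 CPM in GM and 1.06, 1.67 and 1.14 CPM in PIO + GM. The difference between the 24 h and 6 h values of this contrast was largest for Lhx3, at 1.37 (SE 0.73, unadjusted p = 0.0738, edgeR adjusted p = 0.843), and no gene of the 6 passed.

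In PIO + GM against GM at 24 h, 17 of 18 spiral ganglion neuron genes (median -0.36), 14 of 16 macrophage genes (median -0.25) and 9 of 14 Schwann cell genes (median -0.16) were lower too. Supporting cell genes were split, with 11 higher and 11 lower. The list called lymphoid and granulocyte, which also names the hemoglobin genes Hba-a1 and Hbb-bs, had 4 of 5 tested genes higher (median 0.39). None of these genes passed. Their part in the values of Pou4f3, Gfi1 and Barhl1 was not tested.

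Set against CTRL, explants with both compounds showed the same 4 genes lower without overlap at 6 h, against 8.26% of all genes. PIO + GM and its comparisons with GM and CTRL share libraries, so these are not independent. Lhx3 fell, and was the only one of the 6 genes past the threshold in any treatment comparison (2.64% of all genes passed here). It had 3.21, 1.5 and 6.54 CPM in CTRL, a log2 fold change of -2.38 (SE 0.53, edgeR adjusted p = 0.0283), 5.21-fold lower.

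The call for Lhx3 was lost with the GC trend removed, at -1.88 (edgeR adjusted p = 0.069, where 1.59% of all genes passed), and in a fit of the 12 libraries at 6 h alone (adjusted p = 0.237). It was also lost without any 1 of CTRL replicate 1, CTRL replicate 3, PIO + GM replicate 2 or PIO + GM replicate 3, with values of -2.48, -1.72, -2.71 and -2.26. Without PIO + GM replicate 1, Pou4f3, Gfi1 and Lhx3 passed (21.5% of all genes), at -1.33, -1.17 and -2.25, and Barhl1 was at -1.05. The same 3 genes passed with DESeq2 (8.93% of all genes). CTRL replicate 3 had the highest Lhx3 level of all libraries.

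Pou4f3 had 12.1, 5.99 and 15.1 CPM in CTRL at 6 h, for -1.42 (SE 0.39, edgeR adjusted p = 0.0566) with both compounds. Gfi1 had 9.0, 4.23 and 9.5 CPM in CTRL, for -1.16 (SE 0.33, edgeR adjusted p = 0.0578). Barhl1 had 2.17, 2.03 and 4.15 CPM in CTRL, for -1.14 (SE 0.38, edgeR adjusted p = 0.091). CTRL replicate 2 was the lowest CTRL library for these 3 genes, and still lay above every PIO + GM library.

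Genes of other cells were mostly lower in PIO + GM than in CTRL at 6 h, with 19 of 22 supporting cell genes (median -0.42), 12 of 16 macrophage genes (median -0.17), 9 of 14 Schwann cell genes (median -0.03) and 10 of 18 spiral ganglion neuron genes (median -0.04), while 3 of 5 lymphoid and granulocyte genes were higher. None passed. The medians without PIO + GM replicate 1 were -0.38, -0.30, -0.83 and -0.40, and 1 supporting cell, 2 Schwann cell and 1 neuron gene fell while 1 macrophage gene rose, where 21.5% of all genes were called. Their part in the values of the transcription factors was not tested.

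At 24 h, Barhl1 and Lhx3 were lower in PIO + GM than in CTRL without overlap, against 10.2% of all genes, and 0 of 6 genes passed (0.478% of all genes did). Barhl1 had 2.19, 3.83 and 2.79 CPM in CTRL, a log2 fold change of -1.02 (SE 0.36, edgeR adjusted p = 0.287). Lhx3 had 3.42, 5.35 and 3.66 CPM in CTRL and 1.06, 1.67 and 1.14 CPM in PIO + GM, a log2 fold change of -1.69 (SE 0.48, edgeR adjusted p = 0.135). It was called by DESeq2 (adjusted p = 0.0454, where 1.61% of all genes were called) and in the 12 libraries of that time (edgeR adjusted p = 0.0265, with 1.74% of all genes called).

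**Figure D3:**
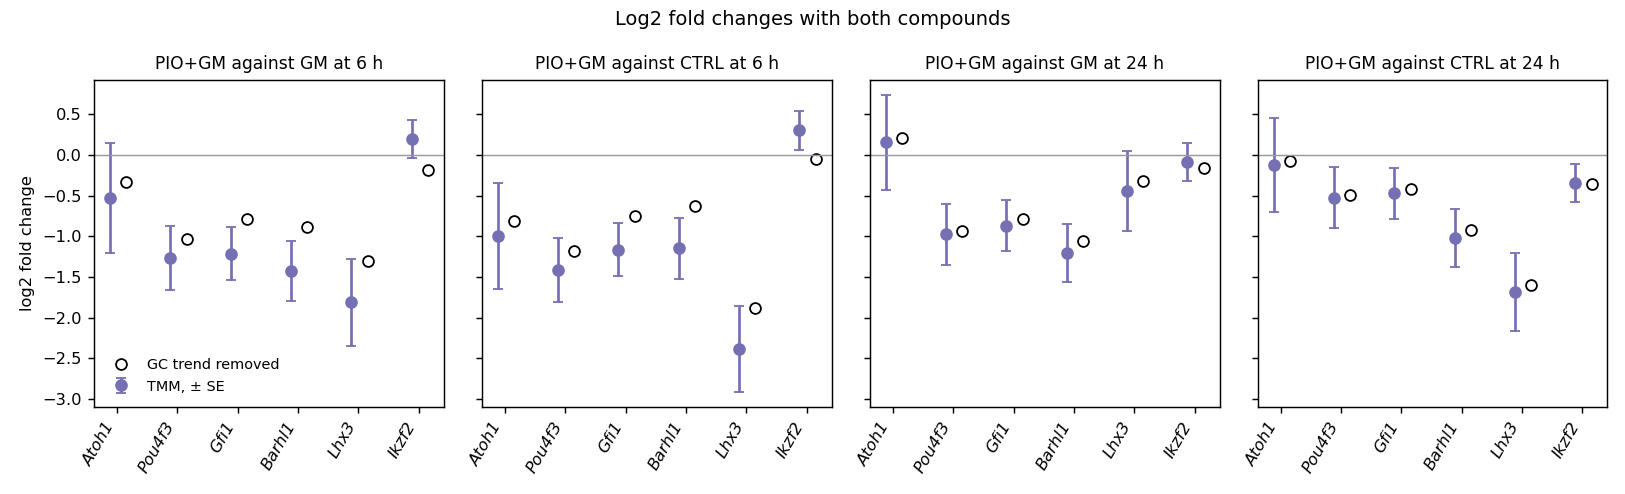
Log2 fold change of the 6 tested genes in 4 comparisons with PIO + GM. Filled points are the TMM-scaled fit with bars for 1 SE, and open points the fit with each library's GC trend removed. Lhx3 against CTRL at 6 h, at -2.38, was the only value past the threshold.

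Each compound alone was set against CTRL. With GM, 0 of 6 genes passed at 6 h, with 0% of all genes passing and 0 of 6 at an unadjusted p under 0.05 (1.49% of all genes). With GM at 24 h, 0 of 6 passed (0.0123% of all genes), and 1 of 6 had an unadjusted p under 0.05 (1.67% of all genes). Lhx3 was the exception in its separation at 24 h (3.06% of all genes were separated lower), with 1.41, 1.42 and 2.4 CPM in GM, a log2 fold change of -1.25 (SE 0.46, edgeR adjusted p = 1). Pou4f3 and Gfi1 stood on the other side of zero in this comparison, at 0.45 and 0.40, with overlapping libraries.

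With PIO, 0 of 6 genes passed at 6 h (0.337% of all genes) and 0 of 6 at 24 h (0.153%). Lhx3 at 6 h had 1.75, 0.529 and 1.52 CPM in PIO, a log2 fold change of -1.54 (SE 0.48, edgeR adjusted p = 0.148), and -0.87 without CTRL replicate 3, although PIO replicates 1 and 3 lay just above the lowest CTRL library, at 1.5 CPM. Pou4f3 and Barhl1 were at -0.76 and -0.74, also with overlap. Genes of other cells moved with this comparison. All 18 tested spiral ganglion neuron genes were lower (median -0.56) and 1 of them passed, Gap43, a growth-cone gene, at -1.26 (edgeR adjusted p = 0.0244). All 14 Schwann cell genes were lower as well (median -0.78), with 0 passing. Their part in the values of the transcription factors was not tested. At 24 h all 6 genes lay between -0.46 and 0.18. The difference between the 24 h and 6 h values of PIO against CTRL was 1.39 for Lhx3 (SE 0.65, unadjusted p = 0.0467, edgeR adjusted p = 0.898), and 0.72 without CTRL replicate 3 at 6 h. In that test of the difference, 714 of 16317 genes had an unadjusted p under 0.05 and 0 passed. DESeq2 called 0 of 6 genes in each of the 4 comparisons of 1 compound with CTRL. Its shares of all genes were 0% and 0.0919% for GM and 2.66% and 0.993% for PIO, at 6 h and 24 h.

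PIO + GM was also set against PIO. No gene of the 6 passed at 6 h (0% of all genes) or 24 h (0.0735%). DESeq2 called none of the 6 at 6 h (0.00613%) or 24 h (0.215%). Gfi1 was separated at 6 h (1.69% of all genes), with 7.36, 6.66 and 3.9 CPM in PIO and a log2 fold change of -0.81 (SE 0.33, edgeR adjusted p = 0.998), which was -0.81 without PIO + GM replicate 1 as well. At 24 h Barhl1, with 3.4, 2.93 and 3.72 CPM in PIO, and Lhx3, with 3.98, 2.99 and 4.29 CPM, were separated (4.73% of all genes), at -1.20 and -1.54 (edgeR adjusted p = 0.598 and 0.713). At 6 h, 17 of 18 neuron genes (median 0.60) and 13 of 14 Schwann cell genes (median 0.59) were higher in PIO + GM than in PIO, but their medians were 0.18 and -0.05 without PIO + GM replicate 1. At 24 h, 12 of 14 Schwann cell genes were higher (median 0.30) and 12 of 18 neuron genes lower (median -0.24).

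The difference between the PIO effect with and without GM was tested directly. At 24 h it was -1.38 for Barhl1 (SE 0.49, unadjusted p = 0.0108) and -1.05 for Gfi1 (SE 0.44, unadjusted p = 0.0275), and edgeR's adjusted p was 1 for both. Of all 16317 genes, 197 had an unadjusted p under 0.05 in this test at 24 h. At 6 h 0 of the 6 did, against 293 of all genes, and 0 of all genes passed at either time. No gene of the 6 passed in either test, and DESeq2 called none.

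Time in culture was compared as 24 h against 6 h within each treatment. In CTRL, Ikzf2 rose, from 64.0, 52.1 and 64.0 CPM to 113, 70.9 and 116 CPM (log2 fold change 0.74, SE 0.24, edgeR adjusted p = 0.0259). It was the 1 gene of 6 that passed, where 28.0% of all genes did, and the 1 separated higher, where 24.1% were. The call was lost without any 1 of CTRL replicate 2 at 6 h, replicate 1 at 24 h or replicate 3 at 24 h.

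In PIO, Lhx3 and Barhl1 rose, 2 of 6 genes where 29.0% of all genes passed. Lhx3 went from at most 1.75 CPM to at least 2.99 CPM (1.53, SE 0.48, edgeR adjusted p = 0.023). Barhl1 went from at most 2.37 CPM to at least 2.93 CPM (1.00, SE 0.36, edgeR adjusted p = 0.0401). Atoh1 was separated too, at 0.88 (SE 0.63, edgeR adjusted p = 0.306), so 3 of 6 were separated higher against 20.6% of all genes. The Spearman correlation with GC content was 0.307, and with the GC trend removed neither Barhl1, at 0.65, nor Lhx3, at 1.25 (edgeR adjusted p = 0.0506), passed. Leaving out any 1 of PIO replicate 2 at 6 h or PIO replicates 1 and 3 at 24 h ended both calls, and leaving out PIO replicate 3 at 6 h or PIO replicate 2 at 24 h ended that of Barhl1.

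In GM, 0 of 6 genes passed (24.2% of all genes) and 0 had an unadjusted p under 0.05 (37.2% of all genes). DESeq2 called 0 there too (28.2% of all genes). In PIO + GM, 0 of 6 passed (34.6% of all genes), and DESeq2 called none of them (37.9% of all genes). Gfi1, at 0.50, and Lhx3, at 0.84, were separated higher (22.4% of all genes), with edgeR adjusted p = 0.24 and 0.244. Pou4f3 overlapped at 0.92 (SE 0.39, edgeR adjusted p = 0.0746). Without PIO + GM replicate 1 at 6 h these 3 values were 0.51, 0.72 and 0.84, and 0 of 6 passed.

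Among the 6 tested genes, levels moved together within groups to different degrees. With group means removed, Pearson's r over 24 libraries was 0.747 for Pou4f3 with Gfi1 (rho 0.754), 0.704 for Barhl1 with Lhx3 (rho 0.637) and 0.607 for Pou4f3 with Lhx3 (rho 0.65). Ikzf2 had its highest value with Gfi1, at 0.429, and Atoh1 with Lhx3, at 0.494. The points share libraries, depth and tissue composition, so these are descriptions.

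The genes outside the set most like each member were ranked among 13822 genes on the same scale. Pou4f3 was most like Espnl (r = 0.938, rho 0.93), a relative of the stereocilium protein espin, then Grid2ip (0.92) and B4galnt3 (0.919). Leaving out the 2 libraries farthest from the median, these were 0.919, 0.89 and 0.882. Gfi1 was most like Rlbp1 (0.887), Uchl1 (0.885) and Bmp8b (0.884).

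Barhl1 was most like Zfp804b (0.842), Ccdc40 (0.824) and Tmc2 (0.812), the last a component of the hair cell transduction channel. Lhx3 was most like Shank2 (0.82), Sall3 (0.81) and Bex1 (0.803), although rho was lower, from 0.659 to 0.719. Atoh1 was most like Rack1 (0.854), Igf2bp3 (0.793) and Hscb (0.782), which without the 2 farthest libraries were 0.86, 0.645 and 0.673. Lhx3 then had 0.774, 0.736 and 0.691. Ikzf2 was most like Fam120aos (0.949), Echdc1 (0.949) and Thnsl1 (0.938). Without removing group means, Lmo1 was the first for both Pou4f3 (0.915) and Gfi1 (0.85).

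Hair cell effectors, 39 tested genes chiefly for stereocilia, transduction and synapses, were counted beside the transcription factors. Not all of them are confined to hair cells, Pvalb and Calb2 among these. None of the 39 passed in any treatment comparison of the 24 libraries. In PIO + GM against GM at 6 h their median log2 fold change was -0.05, beside -1.24 for the 6 transcription factors and -0.02 for all genes, with 18 effectors higher and 21 lower. Myo7a, at -0.72 (edgeR adjusted p = 0.0973), and Pjvk (pejvakin), at -1.27 (edgeR adjusted p = 0.105), had the lowest p of the list. Summed effector levels overlapped, from 1182 to 1895 CPM in GM and from 1185 to 1817 CPM in PIO + GM. With PIO + GM replicate 1 left out, the medians were 0.02 for the effectors and -1.21 for the transcription factors, and 2 of 39 effectors fell, where 24.4% of all genes were called. Against CTRL at 6 h the effectors had a median of -0.26, beside -1.15 for the transcription factors, with 25 of 39 lower, and 6 with an unadjusted p under 0.05, where 11.1% of all genes were lower at that p. Without PIO + GM replicate 1 that effector median was -0.11. Whether the 2 lists differ was not tested.

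At 24 h most effectors lay below CTRL in each of the 3 treatments, without passing the test. In PIO + GM, 38 of 39 were lower, with a median of -0.76, beside -0.50 for the 6 transcription factors. Of these, 19 had an unadjusted p under 0.05, as did 5.83% of all genes in the lower direction, and 0 passed the adjusted test. Lhfpl5, a transduction complex protein, was at -1.67 (edgeR adjusted p = 0.0548), and Rasd2 at -1.75 (edgeR adjusted p = 0.0686). Summed levels were 1812 to 2266 CPM in CTRL and 1227 to 1673 CPM in PIO + GM, so they did not overlap. In GM they were 1451 to 1762 CPM, also apart from CTRL, and in PIO 1314 to 1975 CPM, which overlapped CTRL. In PIO + GM against GM at 24 h, 34 of 39 effectors were lower (median -0.40, beside -0.65 for the transcription factors), and against PIO 33 of 39 (median -0.42, beside -0.53). In GM against CTRL at 24 h, 32 of 39 were lower (median -0.43), while the 6 transcription factors had a median of -0.04. There 17 of 22 supporting cell genes were lower (median -0.17), and 12 of 14 Schwann cell genes (median 0.17) and 12 of 16 macrophage genes (median 0.19) were higher. In PIO against CTRL at 24 h, 35 of 39 were lower (median -0.36). There 14 of 18 spiral ganglion neuron genes (median -0.29), 12 of 14 Schwann cell genes (median -0.29) and 18 of 22 supporting cell genes (median -0.20) were lower too, while macrophage genes had a median of 0.01. Gap43 fell, at -1.27 (edgeR adjusted p = 0.0293).

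In PIO + GM against CTRL at 24 h the genes of other cells went different ways. Of the spiral ganglion neuron genes, 16 of 18 were lower (median -0.43), and 1 fell, Gap43, at -1.05 (edgeR adjusted p = 0.048, where 0.478% of all genes passed). Of the supporting cell genes, 19 of 22 were lower (median -0.23). Schwann cell genes were split, with 7 higher and 7 lower (median 0.03), while 10 of 16 macrophage genes (median 0.11) and 4 of 5 lymphoid and granulocyte genes (median 0.37) were higher. Their part in the effector values was not tested.

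Regulators of hair cell fate were counted in 2 lists. The 19 tested genes listed as opposing the fate were chiefly Notch pathway members, ligands included. Of these, 0 rose and 2 fell in PIO + GM against CTRL at 6 h, where 2.64% of all genes passed. They were Mfng, a modifier of Notch receptors, at -1.35 (SE 0.31, edgeR adjusted p = 0.0309), and Hes1, a Notch target, at -0.88 (SE 0.23, edgeR adjusted p = 0.0491). The list median was -0.66. When PIO + GM replicate 1 was left out they were at -1.45 and -1.17, 4 of 19 fell and the median was -0.71, where 21.5% of all genes were called. That was the only alternative run for Mfng and Hes1, so their calls were not checked with the GC trend removed. In the other 9 treatment comparisons 0 of the 19 opposing genes passed. Of 20 tested genes listed as favouring the fate, 0 passed in any treatment comparison, with medians from -0.31 to -0.03. In PIO + GM against GM at 6 h without PIO + GM replicate 1, 2 of these 20 rose and 3 fell, and 5 of the 19 opposing genes fell, where 24.4% of all genes were called.

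The fate lists and the effectors were also counted for 24 h against 6 h. Effector medians were 0.27 in CTRL, -0.27 in GM, 0.22 in PIO and -0.44 in PIO + GM. Genes are named for PIO + GM, where 34.6% of all genes passed. In these explants, 5 of the 20 positive regulators rose and 1 fell, among them Tbx2 (0.90), Hes6 (0.80) and Prdm16 (1.25). In the opposing list 4 of 19 rose, Notch2 (1.04), Id3 (1.02), Notch1 (0.90) and Heyl (1.28), all with edgeR adjusted p under the threshold. The positive regulator that fell was Tcf12, at -0.24. Of the effectors, 2 rose, Tmie, a transduction channel component, at 1.03 and Espn, the stereocilium protein espin, at 1.06. Tcf12, Tmie and Espn were named after their values were seen. Another 4 effectors fell, Pvalb at -2.45 and Calb2 at -1.67, both calcium-binding proteins, Atp8b1 at -0.91, and Slc17a8, the glutamate transporter of inner hair cells, at -1.55. In the fit of all 24 libraries the shares called in these lists lay below that of all genes. Once PIO + GM replicate 1 at 6 h was left out, the share of the positive list lay above it. Without PIO + GM replicate 1 at 6 h, 7 positive regulators rose and 2 fell, 5 opposing genes rose, and 0 effectors rose and 6 fell, where 36.6% of all genes passed.

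Genes of other cells moved with time as well. In PIO + GM the spiral ganglion neuron genes had a median of -1.49 with 1 rising and 4 falling, the Schwann cell genes -0.80 with 2 rising and 4 falling, and the macrophage genes 0.74 with 5 of 16 rising. Without PIO + GM replicate 1 at 6 h these medians were -0.97, 0.12 and 0.88, so that of the Schwann cell genes changed sign. In CTRL the medians were -0.64, -0.95 and 0.72, in GM -1.16, -0.96 and 0.68, and in PIO -0.28, -0.35 and 0.58. Supporting cell genes were mostly higher at 24 h, 19 of 22 in CTRL with 5 rising (median 0.35), 18 in GM with 3 rising (0.34), 18 in PIO with 2 rising (0.34) and 16 in PIO + GM with 4 rising (0.40). The 5 tested genes of the lymphoid and granulocyte list, which also names hemoglobin genes, had medians from -1.37 in GM to -1.09 in PIO + GM. The part of these other cells in the time changes of Ikzf2, Lhx3, Barhl1 and the effectors was not tested.

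Markers of other cells moved with some of these comparisons. Of 14 Schwann cell genes, 13 were lower in PIO + GM than in GM at 6 h (median -0.49), and 0 passed. Of 18 spiral ganglion neuron genes, 1 fell there, Gap43, at -1.11 (SE 0.23, edgeR adjusted p = 0.033), where 1.32% of all genes passed. The 22 supporting cell genes had a median of -0.23 and the 16 macrophage genes of -0.40, and 0 passed, as did 0 of 5 tested lymphoid and granulocyte genes. Summed levels of the Schwann cell list spanned 643 to 3177 CPM within PIO + GM at 6 h and 1490 to 3499 CPM within GM, with overlap. If PIO + GM replicate 1 was left out, 4 of the 14 Schwann cell genes fell (median -1.15), 1 of the 18 neuron genes fell (median -0.68), Gap43 was at -1.26, and 2 of the 22 supporting cell genes fell, where 24.4% of all genes were called. No gene of any marker list was at 0 in every library. Their part in the result for the transcription factors was not tested.

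**Figure D4:**
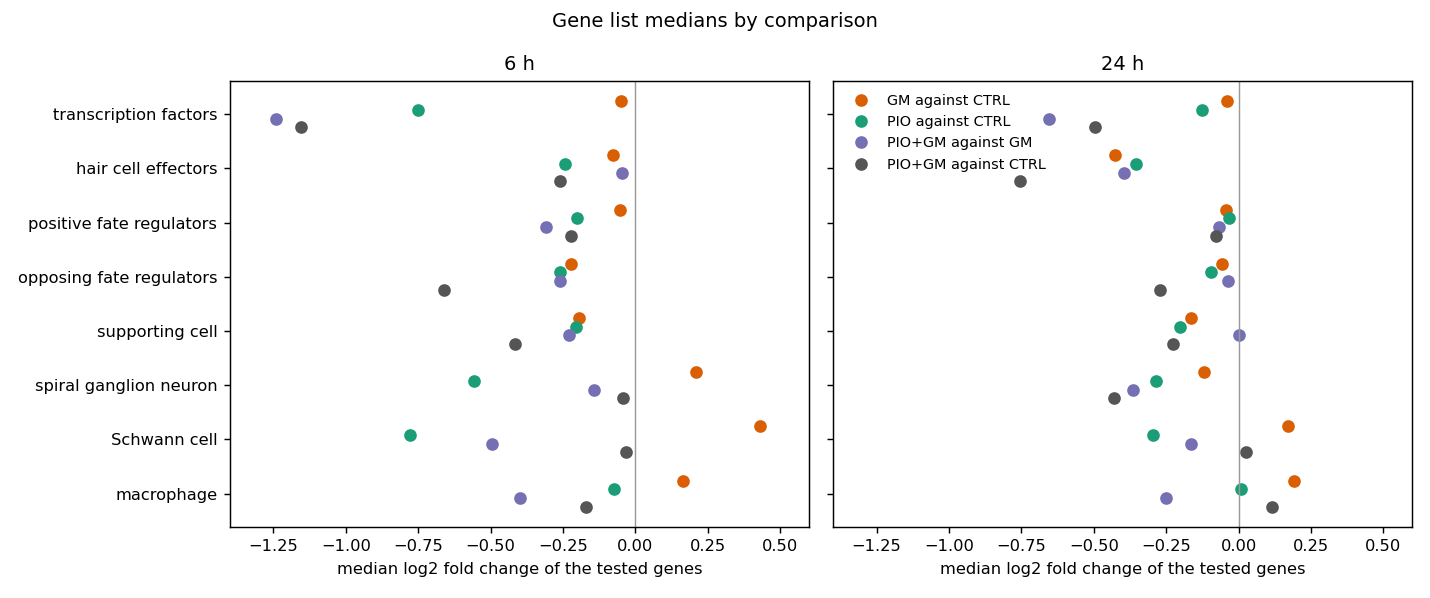
Median log2 fold change of the tested genes of each list (x axis) at 6 h and 24 h, for 4 treatment comparisons. Points are list medians, with 6 transcription factors and 39 hair cell effectors. The transcription factors lay at -1.24 in PIO + GM against GM at 6 h, and the effectors at -0.76 in PIO + GM against CTRL at 24 h.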

How the data were processed

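Per the study's methods, single-end reads of total RNA were mapped with STAR (mm10 in the submitters' processing notes) and read starts within RefSeq exons were counted with QuasR. The strand setting was not given in the sources used here. The authors deposited raw counts per gene in 24 libraries, and treatments were run in triplicate. The labels name no litters or days, so p-values measure only the spread between these libraries. Symbols were matched for 24381 of 24454 genes. Counts were scaled with TMM factors, filtered with filterByExpr and tested in edgeR 4.0.16 (R 4.3.3) with the quasi-likelihood test over all 24 libraries and 1 mean per group, with Benjamini-Hochberg adjustment at 0.05 over 16317 genes. DESeq2 1.42.0 was an alternative. GC trends were removed by per-library offsets. The method was tested on simulated data. All 7 genes were described in every library, and fold changes were given where libraries did not overlap or the unadjusted p was under 0.05, the others by range. Genes of a list were named if past the threshold (at most 4 a comparison, by p), or else the 2 with the lowest p. Results for 1 gene of a list are not reported here. Like genes were the 3 of highest r among genes with a mean log2 CPM of at least 1. The members and lists were chosen with earlier results of these data known. The lists overlap, so some genes were counted in more than 1. Prox1, Hes5, Hey2, Heyl and Lfng were in the supporting cell and opposing lists, and Sox2 in the supporting cell and positive lists.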

Additional observations from a re-analysis of the deposited data

How the results depend on the processing

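The 28 log2 fold changes whose libraries did not overlap or whose unadjusted p was under 0.05 kept their direction in every alternative run, including each library left out in turn. Ikzf2 between PIO + GM and GM at 6 h, which was not among them, changed sign with the GC trend removed. Calls did not. Between PIO + GM and GM at 6 h, where the main test called 0 of 6 genes, DESeq2 called 4 (9.58% of all genes). A filter of 10 counts in every library (which removes Atoh1 and Lhx3) called 1 (2.58%). Leaving out each library gave 0 to 2 (0.0241 to 24.4%). Against CTRL at 6 h, where the main test called 1, DESeq2 called 3 (8.93% of all genes). The 12 libraries of the time point gave 0 (0.0127%), the removed GC trend 0 (1.59%), and leaving out each library 0 to 3 (0.187 to 21.5%). The filter of 10 counts gave 1 (4.35%), which was not Lhx3, since that filter removes it. Against CTRL at 24 h, 0 became 1 with DESeq2 (1.61% of all genes) and 1 in the 12 libraries (1.74%). For 24 h against 6 h with libraries left out, CTRL gave 0 to 1 (16.1 to 25.8% of all genes) and PIO gave 0 to 2 (16.3 to 36.5%). PIO + GM gave 0 to 1 (20.8 to 36.6%). For PIO the 2 calls became 1 without TMM factors (28.5% of all genes), 1 with the 10-count filter (31.1%) and 0 with the GC trend removed (32.1%).

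Replicate numbers were not used to pair libraries in the main test, since not every same-numbered pair correlated over 0.1 (24 of 36 did). Deviations of same-numbered libraries correlated at 0.113 on average at 6 h (-0.305 to 0.684) and 0.38 at 24 h (-0.025 to 0.723). Differently numbered libraries averaged -0.055 at 6 h and -0.182 at 24 h. Of 24 libraries, 16 correlated best with their own number. Blocking on the number (replicate block) gave calls of 4 for PIO + GM against GM at 6 h (Pou4f3, Gfi1, Barhl1 and Lhx3, edgeR adjusted p from 0.0215 to 0.0465, with 12.2% of all genes called) and 3 against CTRL at 6 h (9.46%), and 1 for 24 h against 6 h in PIO + GM (36.2%). With the block and the GC trend removed, 0 genes were called for PIO + GM against GM at 6 h (4.50% of all genes) and 1 against CTRL (5.31%), Pou4f3 (edgeR adjusted p = 0.0405), with Lhx3 at 0.0749, while 1 gene was called for 24 h against 6 h in PIO (34.2%) and 1 in PIO + GM (38.1%), Ikzf2 in each. Interaction tests called 0 under every alternative run for them, which leaves out the fits of 12 libraries. A prior count of 0.5 moved the level of Insm1 to -1.97 log2 CPM. By CPM without length, Ikzf2 came 1st and Pou4f3 2nd, Barhl1 4th and Lhx3 5th. The cause of these changes was not tested. Depth limits Lhx3, Atoh1 and Insm1 most. The gene lists without PIO + GM replicate 1 at 6 h were added after the data were seen.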
